A study of Mus musculus with 4 samples.

Results

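The genes described here act upstream of, beside and downstream of the polyamine pool: the arginases Arg1 and Arg2 and the agmatinase Agmat, the polyamine-transporting ATPases Atp13a2 and Atp13a3, and Dhps and Dohh, the enzymes that make hypusine. They were chosen by name, and all 7 were measured, out of 19505 distinct genes on the array, each by 1 feature. Spleen and lymph node CD8+ T cells of C57/BL6 mice were stimulated in culture with beads carrying antibodies to CD3 and CD28 and expanded with IL-2 for 3 days. The 2 control cultures were left untreated and the 2 spermidine cultures had 25 µM spermidine in the medium; stimulation, IL-2 and time were common to both groups. The mice's sex and age and any vehicle in the control medium are not given in the sources used here. RNA from each culture was hybridised to a Clariom S Mouse array, and signals are given as log2 values.

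Spermidine is a polyamine, a small cation that cells make from arginine through ornithine and putrescine and can also take up from outside. Arginases release ornithine and urea from arginine, and agmatinase releases putrescine from agmatine. ATP13A2 is a lysosomal P5-type ATPase that moves polyamines out of the lysosome, and ATP13A3 is a related endosomal pump needed for polyamine uptake in cultured cells. Spermidine is also the substrate of deoxyhypusine synthase (DHPS), which places its aminobutyl group on a lysine of the translation factor eIF5A. Deoxyhypusine hydroxylase (DOHH) then completes the hypusine residue, and T cells engage this route when they are activated.

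None of the 7 genes differed between spermidine and control cultures beyond the spread between arrays. Dohh, with a fitted mean 1.27-fold higher with spermidine, and Dhps, with a mean 1.25-fold lower, stood on opposite sides of 0 although both act on the same lysine. Atp13a3 had nearly equal signals in 3 arrays and a lower one in the other. Arg1, Arg2 and Agmat gave signals below background on all 4 arrays, as did Atp13a2. Of the 7 genes, 0 had an adjusted p under 0.05 (limma with Benjamini-Hochberg adjustment over all 22206 gene features), as did 0% of the features tested, and 0 of the 7 had an unadjusted p under 0.05, against 7.02% of all features. The adjusted p of the 7 ran from 0.811 to 0.890, so every direction given below is that of a value and not of a called change. In bulk cultures, fewer cells of a type and less RNA per cell cannot be told apart.

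The background is the 95th percentile of 23 antigenomic features, whose probes match no genomic sequence; it averaged 6.35 over the arrays. A signal below it may hold little RNA of the gene, and differences there are compressed. The labels call the arrays biological replicates without naming animals, so p-values measure the spread between these arrays only. The limma p-values and SE are moderated: they combine the gene's own spread with a spread estimated over all features. Array medians lay between 5.13 and 5.25. The cell type label was checked on its markers. All 6 measured of 8 CD8 T cell markers lay above background, with mean levels from 14.24 to 17.98, Cd8a at 16.62 and Cd8b1 at 16.90. They averaged 15.985 and 16.04 in control and 15.78 and 15.88 with spermidine, with 5 lower and 1 higher in the mean. For 4 of the 6 both spermidine arrays lay below both control arrays, against 22.5% of features above background. Of 3 measured CD4 T cell markers, 2 had means above background, Cd4 at 6.94 and Zbtb7b at 6.98. Zbtb7b measured 6.32, below background, and 6.88 in control and 7.32 and 7.41 with spermidine. Cd4 differed by -0.062 and Cd40lg by -0.15, so 1 of these 3 was higher and 2 were lower in the mean. B cell markers averaged 5.97 and 5.90 in control and 6.62 and 6.43 with spermidine over 9 measured of 10 genes, with 9 higher in the mean and 5 above background. Jchain, counted among these 5, measured 6.09 and 5.56 in control, below background, and 7.47 and 8.03 with spermidine. Its difference of 1.92 was the largest of the list and weighed most on the higher averages. Of the measured markers, 0 of 7 for dendritic cells and 0 of 8 for neutrophils lay above background. So did 2 of 3 for NK cells, Klrb1c at 6.81 and Eomes at 12.77, and 1 of 3 for erythroid cells and platelets. These 3 erythroid and platelet genes were all higher in the mean, Ppbp by 1.78 at signals below background. The part of these marker differences in the differences of the 7 genes was not tested.

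**Figure D1:**
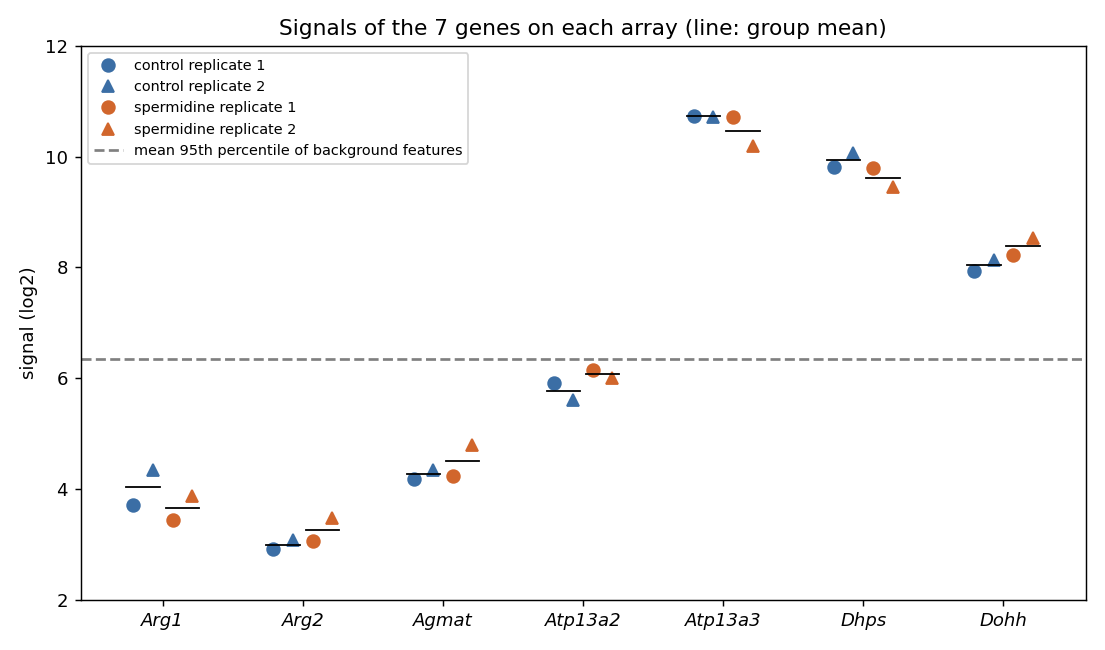
Log2 signal (vertical axis) of each of the 7 genes on each of the 4 arrays; circles and triangles are replicates 1 and 2, blue is control, orange is spermidine, and short lines are group means of n = 2. Atp13a3, Dhps and Dohh lie above the dashed background line at 6.35, and the other 4 genes lie below it on every array; heights are not comparable between genes.

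The arginine-consuming enzymes came first in the pathway and gave little signal. Arg1 (Entrez gene 11846), the cytosolic arginase of liver and of macrophages, measured 3.71 and 4.35 in control and 3.43 and 3.87 with spermidine. The groups overlapped, with the highest value in control replicate 2. The log2 difference, spermidine minus control, was -0.38 ± 0.29 (SE), with a 95% confidence interval from -1.05 to 0.29 (limma, adjusted p = 0.835). It was -0.70 without control replicate 1 and -0.061 without control replicate 2.

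Arg2 (Entrez gene 11847), the mitochondrial arginase, measured 2.91 and 3.07 in control and 3.06 and 3.47 with spermidine. Its groups overlapped by a margin of 0.01 or less, and did not after quantile normalization, median centring or cyclic loess. The difference was 0.27 ± 0.24 (SE; interval -0.29 to 0.84; adjusted p = 0.851 by limma). Without spermidine replicate 2 it was 0.069, and without spermidine replicate 1 it was 0.48. Agmat (Entrez gene 75986), a mitochondrial relative of the arginases named for the hydrolysis of agmatine, measured 4.18 and 4.35 in control and 4.23 and 4.79 with spermidine. The groups overlapped, and spermidine replicate 2 was the highest. The difference of 0.24 ± 0.26 (SE; interval -0.36 to 0.85; adjusted p = 0.890 by limma) became -0.040 without that array and 0.52 without spermidine replicate 1. All of these are differences between signals below background and are no measure of a fold.

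Macrophages are a known source of arginase, so their markers are given beside Arg1. Of 14 macrophage and monocyte markers 12 were measured, and they averaged 5.11 in both control arrays and 5.02 and 5.06 with spermidine. Of these 12 genes, 7 had differences above 0 and 5 below. Of the 12, 2 lay above background, Ly6c2 and Ccr2, which activated CD8+ T cells also express. Ly6c2 had the largest difference of the 12, -0.97, and so weighed most on the lower averages. Lyz2 differed by 0.86, with both spermidine arrays higher, at signals below background. The defining markers Adgre1, Csf1r and C1qa had mean levels of 4.80, 2.62 and 2.86, all below background. Of the 10 genes listed as accompanying Arg1 in macrophages exposed to IL-4, 4 lay above background; the macrophage genes Chil3, Retnla, Mrc1 and Mgl2 were not among them, with mean levels of 3.93, 3.04, 3.65 and 2.82.

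The transporters followed. Atp13a2 (Entrez gene 74772), the lysosomal exporter whose human gene is mutated in Kufor-Rakeb syndrome, a parkinsonian disorder, measured 5.92 and 5.61 in control and 6.16 and 5.999 with spermidine. The groups did not overlap, the spermidine arrays being higher by a margin smaller than the gap between the control arrays, and all 4 lay below background. The difference was 0.31 ± 0.23 (SE; interval -0.23 to 0.85; adjusted p = 0.830 by limma). It ran from 0.16 without control replicate 2 to 0.46 without control replicate 1, and the groups overlapped after median centring of the arrays.

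Atp13a3 (Entrez gene 224088), the endosomal polyamine pump, measured 10.74 and 10.73 in control and 10.72 and 10.20 with spermidine. The control arrays differed by 0.010 and spermidine replicate 1 stood at the same level, while spermidine replicate 2 lay 0.52 below it. The group means were 10.73 ± 0.0073 (SD, n = 2) and 10.46 ± 0.37 (SD, n = 2), and the difference was -0.27 ± 0.25 (SE; interval -0.86 to 0.31; adjusted p = 0.864 by limma). That value rested on 1 array: it was -0.011 without spermidine replicate 2 and -0.53 without spermidine replicate 1. Both spermidine arrays lay below both control arrays as deposited, but the groups overlapped after quantile normalization, median centring or cyclic loess.

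Of the other P5-type ATPases, Atp13a1, an endoplasmic reticulum pump that removes misplaced membrane proteins, lay above background. It measured 9.99 and 10.28 in control and 10.36 and 10.49 with spermidine, a difference of 0.29 ± 0.23 (SE; adjusted p = 0.839 by limma), which was 0.15 without control replicate 1. Atp13a4 and Atp13a5 lay below background on all 4 arrays, with differences of -0.22 and 0.18. With 1 array left out these ran from -0.34 to -0.11 and from -0.091 to 0.46. The candidate vesicular polyamine transporter Slc18b1 also lay below background, with mean signals of 2.56 in control and 2.68 with spermidine.

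The hypusination enzymes lay above background on every array. Dhps (Entrez gene 330817), which catalyses the first step and consumes spermidine, measured 9.81 and 10.07 in control and 9.80 and 9.44 with spermidine. Spermidine replicate 1 was level with the lower control array to within 0.01, and spermidine replicate 2 was the lowest. The group means were 9.94 ± 0.19 and 9.62 ± 0.25 (SD, n = 2 each), a difference of -0.32 ± 0.24 (SE; adjusted p = 0.836 by limma). Its interval, -0.88 to 0.25, spans a level from 1.84-fold lower to 1.19-fold higher. The difference was -0.14 without spermidine replicate 2 and -0.19 without control replicate 2, and it was -0.50 without spermidine replicate 1. The groups overlapped after quantile normalization or cyclic loess.

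Dohh (Entrez gene 102115), the iron-dependent hydroxylase of the second step, measured 7.94 and 8.14 in control and 8.22 and 8.54 with spermidine. The spermidine arrays were both higher than either control array, the nearest by less than the gap of 0.20 between the control arrays. The group means were 8.04 ± 0.14 and 8.38 ± 0.22 (SD, n = 2 each), a difference of 0.34 ± 0.24 (SE; adjusted p = 0.811 by limma). Its interval, -0.20 to 0.89, spans a level from 1.15-fold lower to 1.86-fold higher. The difference was 0.19 without spermidine replicate 2 and 0.50 without spermidine replicate 1, and its groups stayed apart under quantile normalization, median centring and cyclic loess.

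Within each array, Dhps minus Dohh was 1.87 and 1.93 in control and 1.58 and 0.91 with spermidine. This log2 ratio is free of any constant shift of an array and was smaller in both spermidine arrays. Its group means were 1.90 ± 0.040 and 1.24 ± 0.48 (SD, n = 2 each), a difference of -0.66, which was -0.32 without spermidine replicate 2 and -0.997 without spermidine replicate 1. The pair was chosen after its values were seen, so the difference was not tested; with 2 arrays a group, the smallest p an exact permutation test allows is 0.333. The genes are read by different probes, so the ratio compares arrays and not the amounts of the 2 transcripts.

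**Figure D2:**
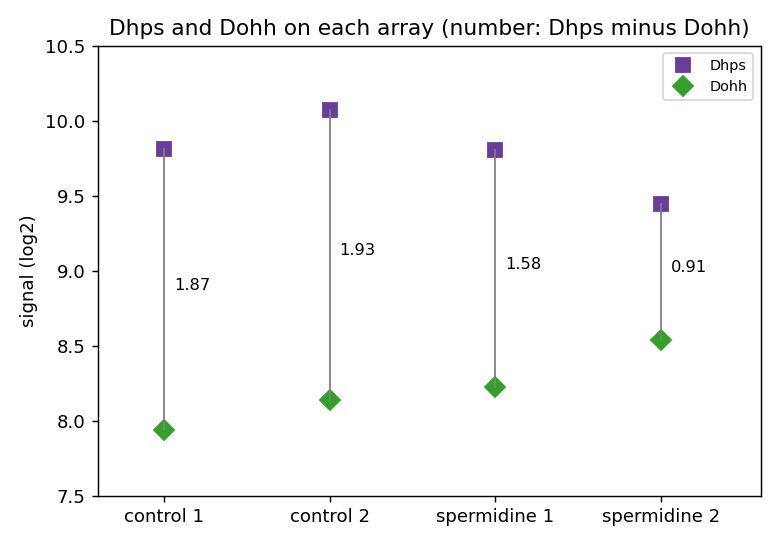
Log2 signal (vertical axis) of Dhps (squares) and Dohh (diamonds) on each array (horizontal axis); the number beside each line is Dhps minus Dohh on that array. The distance is 1.87 and 1.93 in control and 1.58 and 0.91 with spermidine, shortest in spermidine replicate 2.

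The 300 bases around the annotated starts of both enzymes are shown because these genes stood above background with values on opposite sides of 0. They come from RefSeq on GRCm38.p6, run from 250 bases before the start to 50 after it, and are written 5′ to 3′ on the gene's strand, which is plus for both. Dhps is at chr8:85071507-85071806 and Dohh at chr10:81384184-81384483. Capitals mark matches, on either strand, to the E-box CACGTG, the antioxidant response element core TGACNNNGC, the GC box GGGCGG and the ETS site CCGGAAG.
Dhps: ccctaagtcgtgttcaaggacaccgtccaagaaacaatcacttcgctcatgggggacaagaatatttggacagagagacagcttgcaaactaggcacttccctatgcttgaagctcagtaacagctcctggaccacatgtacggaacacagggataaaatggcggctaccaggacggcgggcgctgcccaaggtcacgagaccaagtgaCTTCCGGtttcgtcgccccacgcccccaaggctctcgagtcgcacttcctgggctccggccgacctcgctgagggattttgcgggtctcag
Dohh: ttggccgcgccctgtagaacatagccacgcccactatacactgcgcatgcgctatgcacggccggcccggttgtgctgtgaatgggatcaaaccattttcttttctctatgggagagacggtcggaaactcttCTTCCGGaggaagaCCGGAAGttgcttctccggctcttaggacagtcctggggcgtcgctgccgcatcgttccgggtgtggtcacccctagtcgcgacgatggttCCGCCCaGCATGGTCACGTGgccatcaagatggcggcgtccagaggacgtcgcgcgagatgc
The Dohh window held all 4 motifs: 1 E-box, whose first base is at position 3 after the start, 1 antioxidant response element core that overlaps it, 1 GC box and 2 ETS sites. The Dhps window held 1 ETS site and none of the other motifs. Among 32851 windows of the same length, 7.15% held the E-box, 12.4% the antioxidant response element core, 35.7% the GC box and 8.86% the ETS site. These are matches of letters, and no binding was measured.

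The substrate of both enzymes was measured as well. Eif5a, the translation factor that carries hypusine, measured 17.44 and 17.38 in control and 17.17 and 17.53 with spermidine, a difference of -0.062 ± 0.24 (SE; interval -0.61 to 0.48; adjusted p = 0.979 by limma). The groups overlapped. The level lies toward the top of the scale, and whether differences are compressed there was not tested. Its paralogue Eif5a2 measured 8.22 and 8.37 in control and 8.01 and 7.37 with spermidine. Both spermidine arrays were lower, and the difference of -0.61 ± 0.27 (SE) did not pass (adjusted p = 0.717 by limma); it was -0.29 without spermidine replicate 2 and -0.92 without spermidine replicate 1.

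Across the 7 genes, 4 had groups that did not overlap, 2 higher (Atp13a2 and Dohh) and 2 lower (Atp13a3 and Dhps). Over all features 36.7% did not overlap, 18.3% higher and 18.4% lower; among the 9228 features above background the shares were 19.2% and 22.5%. Of the 3 genes above background, 3 did not overlap, against 41.8% of such features. Under quantile normalization, median centring and cyclic loess, Dohh was the only 1 of these 4 whose groups never overlapped, while Arg2, which overlapped as deposited, had both spermidine arrays higher under each of the 3. The median size of the difference, whatever its sign, was 0.31 for the 7 genes and 0.20 for all features. Of the 7 differences, those of Arg1, Arg2, Agmat and Atp13a2 come from signals below background and are no measure of a fold. The gene with the largest size was Arg1, at the 77.6th percentile of all features, and Agmat, with the smallest, was at the 57.8th. Spermidine replicate 2 held the highest or the lowest value in 5 of the 7 genes, highest in Arg2, Agmat and Dohh and lowest in Atp13a3 and Dhps; it did so in 57.5% of all features.

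**Figure D3:**
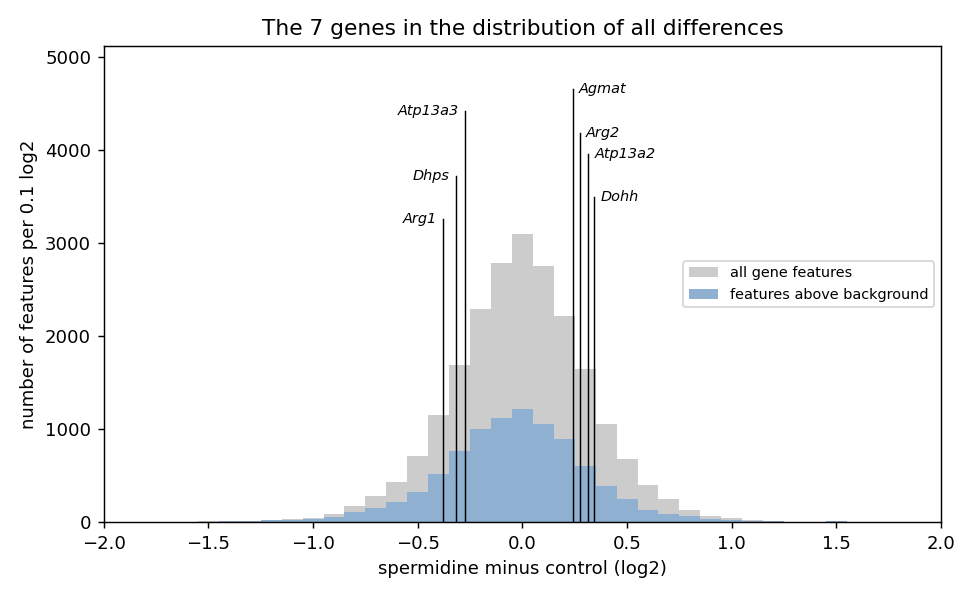
Number of features (vertical axis) by log2 difference, spermidine minus control (horizontal axis, bins of 0.1, shown from -2 to 2), for all 22206 gene features in grey and the 9228 above background in blue; vertical lines mark the 7 genes. The 7 lie between -0.38 and 0.34, and line heights only separate the labels.

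**Figure D4:**
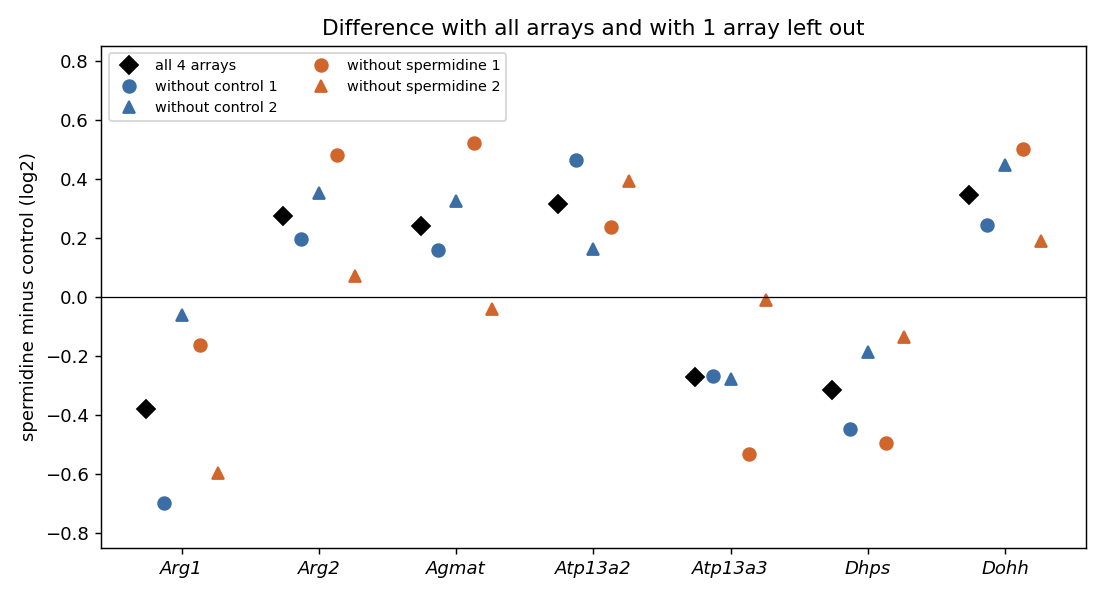
Log2 difference, spermidine minus control (vertical axis), of each gene with all 4 arrays (black diamonds) and with 1 array left out (blue, a control array; orange, a spermidine array; circles, replicate 1; triangles, replicate 2). Without spermidine replicate 2, Atp13a3 stands at -0.011 and Agmat at -0.040.

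The wider pathway was read from 5 lists, with 49 of 55 genes measured and 22 above background. Of the 49, 0 passed the adjusted threshold in either direction (limma, smallest adjusted p = 0.637), and 1 higher and 2 lower had an unadjusted p under 0.05, which is 6.12% against 7.02% of all features. The median difference over the 49 genes was -0.069 and that over all features was -0.0067. Groups did not overlap for 6 higher and 12 lower genes, 36.7% of the lists and 36.7% of all features.

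Next to the arginases, 15 of 17 genes of arginine, ornithine and the urea cycle were measured, 4 of them above background. Aldh18a1, which makes the glutamate semialdehyde from which proline and ornithine derive, measured 12.71 and 12.08 in control and 11.999 and 11.42 with spermidine, a difference of -0.68 ± 0.31 (SE). Oat, which converts ornithine into that semialdehyde, differed by -0.43 ± 0.30 (SE), a value that was -0.073 without spermidine replicate 2 and -0.79 without spermidine replicate 1. The inducible nitric oxide synthase Nos2, which competes with arginase for arginine, lay below background at 4.33 in control and 4.44 with spermidine. Nags, which makes the activator of the urea cycle's first enzyme, also lay below background (difference -0.27). Aldh18a1 had the smallest adjusted p of these 4 genes, 0.717 (limma), and its difference was -0.37 without control replicate 1.

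Of 17 other polyamine and cationic amino acid transporters 15 were measured, 6 of them above background. Slc7a3, a cationic amino acid transporter that carries arginine, had the largest difference among the named genes: 10.81 and 10.68 in control and 9.63 and 8.42 with spermidine (-1.72 ± 0.37, SE; adjusted p = 0.637 by limma). It was lower in 2 of 2 spermidine arrays, and the value was -1.12 without spermidine replicate 2. Slc7a1, the main arginine importer of many cells, measured 12.80 and 12.03 in control and 12.62 and 12.12 with spermidine; its difference of -0.044 ± 0.32 (SE) changed sign with the normalization. Slc3a2, the heavy chain shared by several amino acid transporters and also linked to polyamine export, differed by -0.31 ± 0.23 (SE), -0.20 without spermidine replicate 2, and its light chain Slc7a5 by -0.83 ± 0.30 (SE), -0.43 without spermidine replicate 2. Slc7a2 differed by 0.59 ± 0.23 (SE) at signals below background.

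In the synthesis, catabolism and antizyme list 14 of 16 genes were measured, with 7 differences above 0 and 7 below. Within this list the spermine oxidase Smox had the largest value above 0 (0.45 ± 0.23, SE). The antizyme inhibitor Azin1 (-0.51 ± 0.24, SE) and the spermine synthase Sms (-0.42 ± 0.22, SE) had the largest below 0. The ornithine decarboxylase Odc1, which receives the arginase product, stood at 0.13, the spermidine synthase Srm at -0.30 and the acetyltransferase Sat1 at 0.066. None of the genes named in this paragraph passed (limma, adjusted p from 0.733 to 0.975), and without spermidine replicate 2 Azin1 stood at -0.31.

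**Figure D5:**
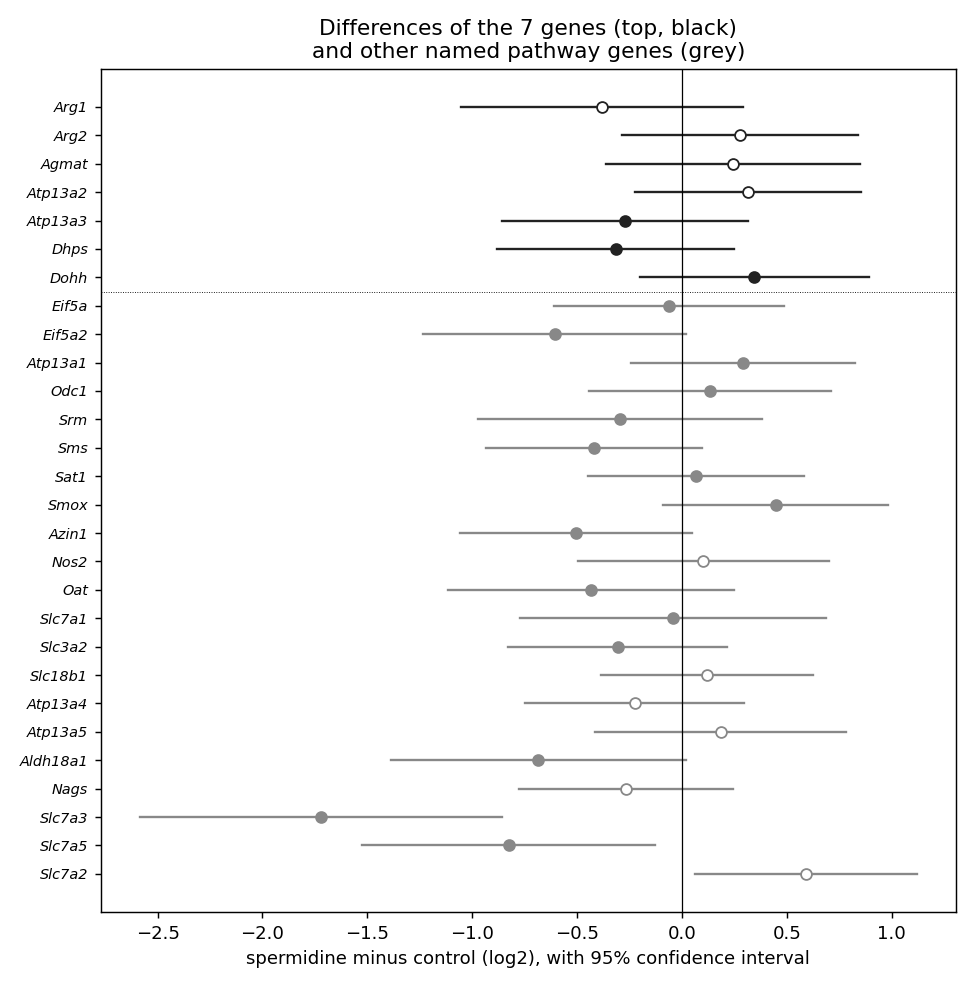
Log2 difference, spermidine minus control (horizontal axis), with its 95% confidence interval from limma, for the 7 genes (black, above the dotted line) and the other named genes (grey); filled circles have a mean level above background and open circles do not. The intervals of all 7 genes include 0; of the other named genes those of Slc7a3, Slc7a5 and Slc7a2 do not, before adjustment for multiple tests.

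The genes with the most similar profiles were taken from 8372 other features above background with 1 gene symbol, by the Euclidean distance between gene-centred log2 values over the 4 arrays. For Atp13a3 they were Snx1 and Zdhhc21, at distances of 0.034 and 0.035. For Dhps they were Rcor1 and Scgb1b19, at 0.036 and 0.046, and for Dohh they were Ddt and Zfp62, at 0.025 and 0.043. With 4 arrays such profiles are common: 377, 156 and 299 features lay within 0.2 of Atp13a3, Dhps and Dohh.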

How the data were processed

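Per the submitters' processing notes, RMA in Affymetrix Expression Console gave the deposited log2 signals; versions are not given in the sources used here. This method subtracts background, quantile-normalizes the arrays and combines the probes of each feature. The gene features as deposited were not equal in distribution, with array medians from 5.13 to 5.25, and a further quantile normalization was an alternative. That the base is 2 was inferred from the range of gene features, 1.72 to 19.93. Biotinylated cDNA came from 250 ng of total RNA, per the labels. Groups and replicate numbers came from the sample titles. Of 28846 features, 6640 control features were left out. The platform annotation gave 19572 of the 22206 gene features 1 symbol, 0 several and 2634 none. No filter on level was applied.

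Groups were compared with limma 3.58.1 under R 4.3.3 (eBayes with a constant prior after lmFit, all 4 arrays, two-sided, Benjamini-Hochberg over 22206 features, threshold 0.05), with 5.96 prior and 2 residual degrees of freedom. The test was also run on simulated data, and its outcome there is not given here. For arrays there is no depth; their number limits the precision, and log2 differences had a median standard error of 0.246. The named genes are the 7 genes, 16 pathway genes fixed by name, of which Oaz1 and Ass1 were not analysed here, and up to 3 genes with the largest statistic in each of 5 lists. In addition, the markers, the genes accompanying Arg1 and the Dhps to Dohh ratio were given as descriptions. The 7 genes, the lists and the rule were chosen with earlier results of these data known. Promoter windows were found for 4 of the 7 genes (Agmat, Atp13a2, Dhps and Dohh). The 14 alternatives covered the prior, array weights, normalization, level filters, 1 feature per symbol, a replicate block and each array left out.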

Additional observations from a re-analysis of the deposited data

How the results depend on the processing

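In the 14 alternatives 0 of the 7 genes passed the adjusted threshold; the filters at the median level and at background left 4 and 3 of them to test. Over all features, 1 passed, in place of 0, with an intensity trend in the prior, median centring, cyclic loess, either level filter, or the replicate block. The block used the replicate numbers of the titles, which the labels do not tie to a shared animal or day; deviations of same-numbered arrays from their group means correlated at 0.21 across all features and 0.379 across those above background, and with the block 1 feature and 0 of the 7 genes passed. The count of the 7 genes whose groups did not overlap was 3 after quantile normalization, median centring or cyclic loess. Of all features 37.9%, 35.1% and 37.8% did not overlap there. Dohh was among the 3 each time, as was Arg2, which overlapped as deposited and lies below background. The third was Atp13a2 after quantile normalization or cyclic loess and Dhps after median centring. With 1 array left out the count was 5 to 6, where 65.0% to 72.1% of all features did not overlap. The filter at background leaves the values unchanged, so its 3 genes held their positions as deposited and did not overlap, against 41.8% of such features. Of these 3, Atp13a3 overlapped after quantile normalization, median centring or cyclic loess, and Dhps after quantile normalization or cyclic loess.

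The sign of a difference turned for Slc7a1 with quantile normalization (0.022) and cyclic loess (0.011). With 1 array left out, signs turned within these ranges: Agmat -0.040 to 0.52, Slc7a1 -0.43 to 0.34, Srm -0.63 to 0.033, Odc1 -0.063 to 0.33, Eif5a -0.25 to 0.12, Sat1 -0.027 to 0.16, Atp13a5 -0.091 to 0.46 and Nos2 -0.17 to 0.37. The cause was not tested. The other 6 of the 7 genes kept their sign under every alternative that tested them, but much of this was fixed in advance. The prior, array weights, level filters, 1 feature per symbol and the block left their differences unchanged. Where the groups did not overlap, leaving out 1 array could not turn the sign. The Dhps to Dohh ratio, added after seeing the data, ran from -0.997 to -0.32 with 1 array left out and was -0.64 and -0.65 with quantile normalization and cyclic loess. The 4 genes below background cannot be read as folds.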
